A study of Mus musculus with 4 samples.

Results

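Cytochrome P450 enzymes were followed here in mouse colon tumours, as the 94 genes of the deposited tables whose symbol is Cyp with a family number, a subfamily letter and a gene number, of 26214 gene symbols in all. Their RNA was compared between Gsk3b IEC-/- tumours (2 libraries) and Gsk3b IEC+/+ tumours (2 libraries), labels that name the state of the kinase gene Gsk3b in intestinal epithelial cells. The tumours of both groups had been raised with AOM, the carcinogen azoxymethane, and DSS, dextran sulfate sodium, which injures the colonic lining. Polyadenylated RNA of whole tumour tissue was sequenced, so fewer cells of a type and less RNA per cell cannot be told apart. The allele, the promoter that drives recombination, the age of the mice and any pooling of animals are not stated in the sources used here. Whether replicates are separate animals is not stated either, and p-values therefore cover the spread between these libraries alone, which may be technical.

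P450 enzymes are haem-thiolate monooxygenases that insert an oxygen atom into fats, steroids, vitamins and foreign compounds. Most sit in the endoplasmic reticulum and take electrons from the reductase Por, while the mitochondrial ones take them from ferredoxin. In the gut, members of families 1 to 4 act in the first-pass metabolism of diet and drugs and in the oxidation of fatty acids and eicosanoids, and they are found mostly in absorptive epithelium. The higher-numbered families make or inactivate steroids, bile acids, oxysterols, vitamin D and retinoic acid.

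Libraries held 25472503 to 27218515 counts, of which 12006 and 12178 fell in P450 genes in the IEC-/- libraries and 14970 and 12702 in the IEC+/+ libraries. Gsk3b itself had 152 and 149 CPM (counts per 1000000 of the scaled library size) in the IEC-/- libraries, against 170 and 157 CPM in the IEC+/+ libraries (log2 fold change -0.12, adjusted p = 0.681). Its count in whole tissue does not check the labels, and the groups are called by them. IEC-/- replicate 2 stood apart in genes of stratified squamous epithelium, a list of 10 genes chosen after the data were seen: they summed to 23.8 CPM in IEC-/- replicate 1 and 3027 CPM in IEC-/- replicate 2, against 134 and 114 CPM in the IEC+/+ libraries. Where leaving that library out changed the call of a P450 gene, its log2 fold changes are given with and without it.

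Of the 94 P450 genes, 19 had no count in any library, 33 had counts but did not pass the filter on low counts, and 42 passed and were tested. Of the 33, 30 had at most 25 counts over all libraries, and the highest single count was 72. Of the 42 tested, 3 fell in the libraries labelled IEC-/- and 0 rose by the quasi-likelihood test of edgeR, called where the p adjusted over all genes was under 0.05. These were Cyp4f14, Cyp4f40 and Cyp2d34, 5.37-fold to 6.76-fold lower. Over all 16637 genes tested, 0.763% fell and 0.12% rose by the same rule. Adjusted p for these 3 genes was 0.161 to 0.417 without 1 or the other IEC+/+ library and 0.0031 to 0.0194 without 1 or the other IEC-/- library. At an unadjusted p under 0.05, 13 P450 genes were lower and 7 higher, which is 31% and 16.7% of those tested, against 9.12% and 7.5% over all genes. The groups did not overlap, with both IEC-/- libraries lower, for 16 P450 genes (38.1%; 24.1% over all genes), and with both higher for 10 (23.8%; 24% over all genes). For the 42 genes the log2 fold change had a median of -0.20, beside 0.01 over all genes. Fits without IEC+/+ replicate 1 and without IEC+/+ replicate 2 tested 45 and 48 P450 genes, among 17273 and 17275 genes. Without IEC+/+ replicate 1 or without IEC+/+ replicate 2, 0 P450 genes and 0 genes of the whole table passed by edgeR, with 8 and 13 P450 genes lower and 1 and 2 higher at an unadjusted p under 0.05 (805 and 1094 lower, 579 and 660 higher over all genes).

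Other fits changed the number of P450 genes called, and some changed the number tested. Tested were 48 without IEC-/- replicate 1, 45 without IEC-/- replicate 2, 75 with no filter and 33 with a stricter filter. Without IEC-/- replicate 1, 5 P450 genes fell and 2 rose (2.24% and 2% over all genes), and without IEC-/- replicate 2, 8 fell and 0 rose (2.33% and 0.989%). With all libraries DESeq2 called 9 lower and 2 higher of 75 P450 genes with counts (3.87% and 2.27% over 20618 genes). It gave 37 of the 75 an adjusted p, and the shares over all genes likewise include genes without one. Of the 42 genes in the exact test of edgeR, 9 were called lower and 0 higher (3.4% and 1.9% over 16637 genes). With limma-voom Cyp2d34 alone was lower and 0 were higher (0.409% and 0.0601%). The same 3 genes fell and 0 rose with the size factors of DESeq2 (0.739% and 0.12%), with a stricter filter (0.867% and 0.151%) and with a replicate block (1.04% and 0.228%), and with no filter Cyp2s1 was the fourth to fall, with 0 higher (1.49% and 0.335%).

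**Figure D1:**
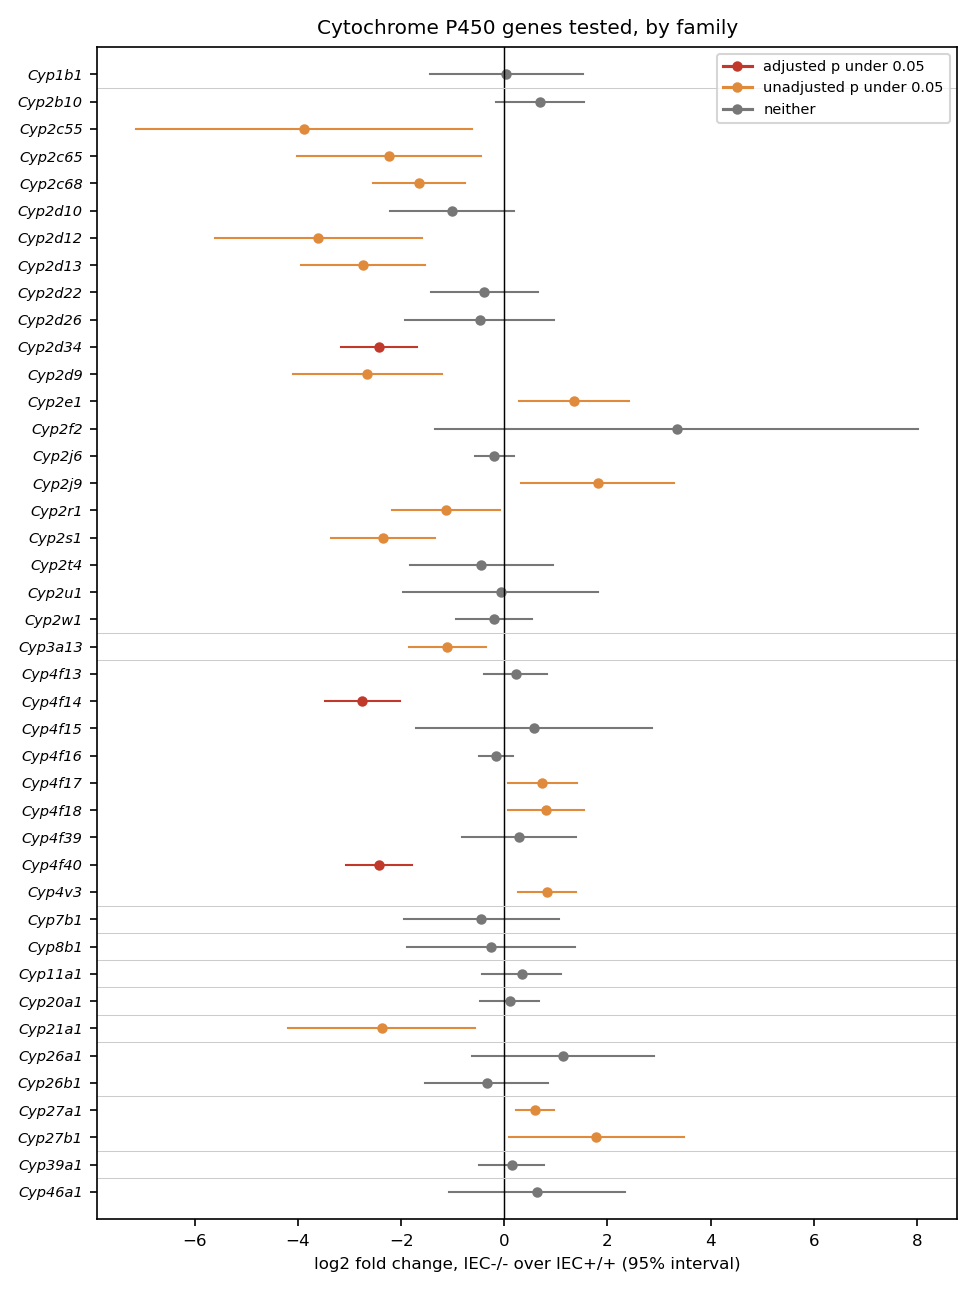
Log2 fold change of IEC-/- over IEC+/+ libraries (x axis) for each of the 42 P450 genes tested, in order of family, with 95% intervals from the edgeR quasi-likelihood fit; grey lines part the families. The 3 genes with an adjusted p under 0.05 (red) lie left of 0, and the interval of Cyp2f2 is the widest in the plot.

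Family 4 holds enzymes that hydroxylate the end of a fatty acid chain, and its Cyp4f branch also acts on leukotriene B4 and other eicosanoids. Of 17 genes in the family, 9 were tested, and 2 fell (0.763% over all genes). At an unadjusted p under 0.05, 2 were lower and 3 higher (9.12% and 7.5% over all genes). Cyp4f14, which in the mouse can inactivate leukotriene B4, had 1.98 and 2.21 CPM in the IEC-/- libraries, against 16.1 and 12.3 CPM in the IEC+/+ libraries. Both IEC-/- values lay far below both others, and the means were 2.09 ± 0.165 and 14.2 ± 2.66 CPM (SD, n = 2 each; log2 fold change -2.76, SE 0.29, adjusted p = 0.0413). Cyp4f40 had 6.47 and 7.05 CPM in the IEC-/- libraries, against 43.8 and 29.3 CPM in the IEC+/+ libraries. Again the groups were well apart, with means of 6.76 ± 0.409 and 36.5 ± 10.3 CPM (log2 fold change -2.43 with an SE of 0.26 and an adjusted p of 0.0413). By limma-voom the adjusted p of these genes was 0.0549 and 0.0559.

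The Cyp4f genes that lie beside them on chromosome 17 did not pass. Cyp4f16 had 34.5 and 33.7 CPM in IEC-/- tumours, against 39.9 and 36.2 CPM in IEC+/+ tumours (adjusted p = 0.614), and the 95% interval of the ratio was 0.716 to 1.12. Cyp4f13 had 20.7 and 16.8 CPM, against 18.7 and 13.6 CPM (adjusted p = 0.725). Cyp4f17 had 9.24 and 12.5 CPM, against 6.45 and 6.62 CPM, so that its groups did not overlap in the other direction (log2 fold change 0.73, adjusted p = 0.269). Cyp4f18, which hydroxylates leukotriene B4 in mouse neutrophils and lies on chromosome 8, had 8.49 and 12 CPM, against 5.25 and 6.43 CPM (0.81, adjusted p = 0.27). Cyp4f39 had 1.58 and 1.49 CPM, against 1.12 and 1.40 CPM. Cyp4f15, at a lower level still, had 0.324 and 0.419 CPM, against 0.0772 and 0.416 CPM (adjusted p = 0.821). Cyp4v3, the mouse counterpart of a fatty acid hydroxylase of the human retina, had 21 and 22 CPM in IEC-/- tumours, against 13.9 and 10.3 CPM in IEC+/+ tumours (0.83 with an SE of 0.23 and an adjusted p of 0.175). DESeq2 called Cyp4v3 higher, and the exact test of edgeR and limma-voom did not. All 9 Cyp4f genes summed to 83.3 and 86.3 CPM in IEC-/- tumours, against 131 and 106 CPM in IEC+/+ tumours. Without Cyp4f14 and Cyp4f40, the other 7 Cyp4f genes summed to 74.8 and 77 CPM in IEC-/- tumours, against 71.5 and 64.7 CPM in IEC+/+ tumours; the pair itself summed to 8.45 and 9.26 CPM, against 59.9 and 41.6 CPM.

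The 8 Cyp4f genes on chromosome 17 span 494680 bases (GRCm38, GENCODE M21), in the order Cyp4f39, Cyp4f17, Cyp4f16, Cyp4f37, Cyp4f40, Cyp4f15, Cyp4f14 and Cyp4f13. Cyp4f40 lies at chr17:32658900-32676914 on the plus strand and Cyp4f14 at chr17:32905070-32917342 on the minus strand, with Cyp4f15 between them. Coding sequences of the 8 tested Cyp4f genes were 69.5% to 84.4% identical in pairs, and Cyp4f14 and Cyp4f40 were 81.3% identical to each other. How the counting shared reads between such copies is not stated in the sources used here, so values of single paralogs are uncertain to that extent. Of all 100-base windows in their transcripts, Cyp4f14 and Cyp4f40 shared 0% with any other gene's transcripts, and Cyp4f16 shared 5.95%, mostly with Cyp4f37.

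**Figure D2:**
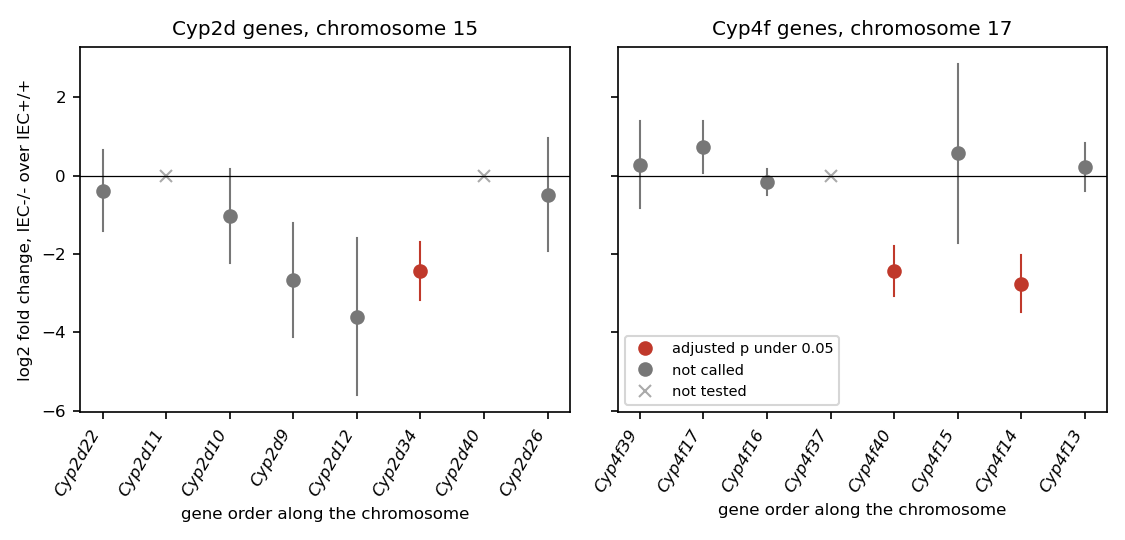
Log2 fold change of IEC-/- over IEC+/+ libraries (y axis, 95% intervals) for the Cyp2d genes of chromosome 15 (left) and the Cyp4f genes of chromosome 17 (right), in their order along the chromosome (x axis, not to scale); crosses at 0 are genes that did not pass the filter on low counts, and Cyp2d13, which has no entry in GENCODE M21, is left out. The fitted values of all Cyp2d genes drawn lie below 0. In the Cyp4f row the called genes Cyp4f40 and Cyp4f14 lie on either side of Cyp4f15. The value of Cyp4f15 rests on 9 and 11 counts in IEC-/-, against 2 and 11 in IEC+/+, and its interval runs from -1.71 to 2.86.

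Promoters of the pair that fell and of Cyp4f16, their neighbour that did not pass, are shown because the 3 genes lie in the same cluster; whether their fold changes differ from each other was not tested. Each is the 250 bases before the most upstream RefSeq start (GRCm38.p6), written 5′ to 3′ on the gene's strand. Capitals mark any match, on either strand, to the motifs searched: TNGCGTG (core of the site of the aryl hydrocarbon receptor AhR), AGTTCA and AGGTCA (nuclear receptor half-sites), CAAAGTC (part of the HNF4 site) and TTTATNG (CDX site).
Cyp4f14, chr17:32917357-32917606, minus strand: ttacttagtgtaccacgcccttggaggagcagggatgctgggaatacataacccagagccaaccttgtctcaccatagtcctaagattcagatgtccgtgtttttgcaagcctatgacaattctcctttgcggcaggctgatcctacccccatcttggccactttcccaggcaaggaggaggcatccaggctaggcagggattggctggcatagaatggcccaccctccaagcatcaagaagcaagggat
Cyp4f40, chr17:32658636-32658885, plus strand: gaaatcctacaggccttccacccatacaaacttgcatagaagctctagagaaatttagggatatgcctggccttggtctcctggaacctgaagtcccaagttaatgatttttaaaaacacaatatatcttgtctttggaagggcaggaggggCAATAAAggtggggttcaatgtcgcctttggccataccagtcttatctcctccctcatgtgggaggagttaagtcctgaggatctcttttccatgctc
Cyp4f16, chr17:32536307-32536556, plus strand: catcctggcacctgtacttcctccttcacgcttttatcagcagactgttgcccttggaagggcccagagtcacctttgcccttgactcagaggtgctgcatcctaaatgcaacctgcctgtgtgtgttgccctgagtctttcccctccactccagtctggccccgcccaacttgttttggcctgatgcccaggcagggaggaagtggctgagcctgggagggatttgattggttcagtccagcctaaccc

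The Cyp4f40 window held a CDX match on the minus strand at positions -98 to -92 from the start. The windows of Cyp4f14 and Cyp4f16 shown held 0 matches to these letters. Among all 32851 promoter windows in the table, 9.81% held the CDX motif, 3.84% the HNF4 letters, 4.1% the AhR core, 11.8% AGTTCA and 14% AGGTCA. Of the 42 tested P450 genes 33 had 38 windows there. The CDX motif was in 5 windows of 4 genes (Cyp26b1, Cyp2b10, Cyp2c55 and Cyp4f40), and both overlapping Cyp4f40 windows held the same match. The HNF4 letters were in 5 windows (Cyp2c65, Cyp2c68, Cyp46a1, Cyp4f18 and Cyp8b1), the AhR core in 1 (Cyp2c68), AGTTCA in 5 and AGGTCA in 3. A match describes these letters and is not a site.

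Family 2 is the largest of the families that handle drugs and foreign compounds, with 49 genes here, of which 11 had no count and 20 were tested. Of the 20 tested, 1 fell (0.763% over all genes). At an unadjusted p under 0.05 there were 9 lower and 2 higher (9.12% and 7.5% over all genes). The called gene was Cyp2d34, a mouse gene of the subfamily that in humans holds the drug-metabolizing enzyme CYP2D6. It had 12.2 and 6.86 CPM in the IEC-/- libraries, against 47.8 and 54.5 CPM in the IEC+/+ libraries. The lower IEC+/+ library was well above both IEC-/- libraries, and the means were 9.51 ± 3.74 and 51.2 ± 4.72 CPM (log2 fold change -2.43 with an SE of 0.30 and an adjusted p of 0.0461). The gene lies at chr15:82615965-82620946, minus strand, in a row of Cyp2d genes.

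The Cyp2d subfamily was lower as a sum, which does not depend on how reads were divided among its members. The sum does depend on reads that the counting dropped as shared or gave to genes outside the subfamily, which is not known here. All 9 members together had 27.6 and 21.7 CPM in IEC-/- tumours, against 82.9 and 81.2 CPM in IEC+/+ tumours, and without Cyp2d34 the other 8 had 15.4 and 14.9 CPM, against 35.1 and 26.7 CPM. The 7 tested members had negative fold changes, with a median of -2.43. Cyp2d12 had 0.0719 and 0.419 CPM in IEC-/- replicates 1 and 2, against 3.59 and 2.42 CPM in IEC+/+ tumours (-3.60, adjusted p = 0.12), and was called without IEC-/- replicate 2 (-5.30, adjusted p = 0.0345). Its IEC-/- values rest on 2 and 11 counts and lay several-fold apart. Cyp2d10 had 3.06 and 8.04 CPM, against 12.3 and 10.2 CPM (-1.02, adjusted p = 0.374), and was likewise called without IEC-/- replicate 2 (-1.88, adjusted p = 0.0429) but not without IEC-/- replicate 1 (-0.50, adjusted p = 0.466). Cyp2d13, annotated by RefSeq as a transcribed pseudogene, had 0.36 and 0.572 CPM, against 3.16 and 3.10 CPM (adjusted p = 0.0754). Cyp2d9 had 0.216 and 0.381 CPM, against 2.20 and 1.59 CPM (adjusted p = 0.117). In Cyp2d12, Cyp2d13 and Cyp2d9 the groups did not overlap, and DESeq2 and the exact test of edgeR called each of them lower (adjusted p = 0.000237 to 0.0235). Cyp2d22 and Cyp2d26, at the ends of the row, overlapped between groups, with log2 fold changes of -0.39 and -0.48. That of Cyp2d26 was 0.12 without IEC-/- replicate 2. Coding sequences of the 6 tested members with a GENCODE entry were 78.2% to 92.5% identical in pairs, and Cyp2d10 and Cyp2d9 shared 11.7% and 7.91% of their windows with other genes, while Cyp2d34 shared 0.066%.

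The Cyp2c subfamily, epoxygenases and hydroxylases of arachidonic acid and drugs, had a lower sum in both IEC-/- libraries. By the quasi-likelihood test 0 of its 3 tested members passed, and its libraries differed widely within each group. Its 15 members summed to 4.68 and 7.89 CPM in IEC-/- tumours, against 55.9 and 17.3 CPM in IEC+/+ tumours. The log2 ratio of the mean sums was -2.54, and without IEC+/+ replicate 1 it was -1.46. Cyp2c55, known in the mouse colon as a producer of hydroxylated arachidonic acid, had 0.144 and 2.67 CPM in IEC-/- tumours, against 34.7 and 6.55 CPM in IEC+/+ tumours. Values within each group differed several-fold, and the gene did not pass (log2 fold change -3.88 with an SE of 1.3 and an adjusted p of 0.242). Its fold change moved with each library left out. It was -2.22 without IEC+/+ replicate 1 (adjusted p = 0.754), -4.63 without IEC+/+ replicate 2 (0.426), -2.95 without IEC-/- replicate 1 (0.198) and -7.12 without IEC-/- replicate 2, where alone it was called (0.0475). Cyp2c68 had 3.85 and 4.65 CPM, against 17.1 and 9.72 CPM (-1.66, adjusted p = 0.113). DESeq2 and the exact test of edgeR called it lower, and limma-voom did not. Cyp2c68 shared 19.8% of its windows, mostly with Cyp2c40, so reads of this pair may not be separable. Cyp2c65 had 0.36 and 0.229 CPM, against 2.01 and 0.795 CPM (-2.23, adjusted p = 0.226). The other 12 members did not pass the filter on low counts.

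Other single members of family 2 had fold changes on both sides of 0, and 0 of them passed. Cyp2s1, an epithelial P450 that can metabolize retinoids and eicosanoids, had 3.20 and 2.48 CPM in IEC-/- tumours, against 19.1 and 9.99 CPM in IEC+/+ tumours. The groups were well apart (log2 fold change -2.35 with an SE of 0.40 and an adjusted p of 0.073), and the gene was called with no filter on low counts (0.0381), by DESeq2 and by the exact test. It was also called without IEC-/- replicate 1 (adjusted p = 0.0493), but not without IEC-/- replicate 2 (0.0641) or either IEC+/+ library (0.193 and 0.48). Cyp2r1, which starts the activation of vitamin D, had 1.08 and 0.991 CPM, against 2.32 and 2.23 CPM (-1.13, adjusted p = 0.275). Cyp2e1, which oxidizes ethanol and takes part in the activation of azoxymethane, had 2.70 and 2.97 CPM, against 0.926 and 1.29 CPM (1.35 with an SE of 0.43 and an adjusted p of 0.22). Cyp2j9 was at 1.29 and 0.877 CPM, against 0.347 and 0.265 CPM (1.81, adjusted p = 0.232). Cyp2j6, an arachidonic acid epoxygenase gene, had 54.7 and 45.7 CPM, against 61.9 and 52.7 CPM (adjusted p = 0.6), and its ratio lay between 0.673 and 1.14 (95% interval). Cyp2b10, a classic target of the receptor CAR, had 9.53 and 6.48 CPM, against 4.13 and 5.75 CPM (adjusted p = 0.394), and Cyp2w1, known for its presence in human colon tumours, 7.66 and 10.9 CPM, against 12.2 and 9.16 CPM (adjusted p = 0.8).

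**Figure D3:**
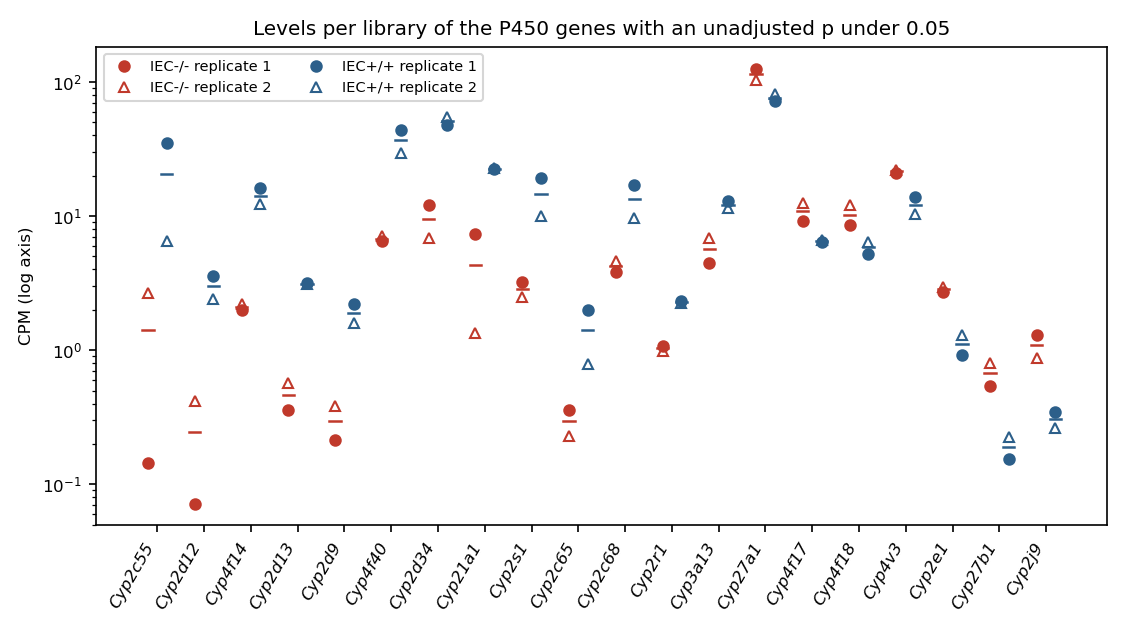
CPM in each library (y axis, log scale) of the 20 P450 genes with an unadjusted p under 0.05, ordered by fold change; red points are IEC-/- libraries and blue points IEC+/+ libraries, circles are replicate 1, triangles replicate 2, and short lines are group means. The groups do not overlap in these genes, which follows largely from choosing them by the same contrast. Cyp2c55, Cyp2d12 and Cyp21a1 show wide gaps inside IEC-/-.

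Families 1 and 3, which hold the classic inducible enzymes, had few counts apart from Cyp1b1 and Cyp3a13. Cyp1a1, the standard target gene of AhR, had 0 and 0 counts in the IEC-/- libraries, against 3 and 1 in the IEC+/+ libraries. Cyp1b1, which is also induced through AhR and is expressed in stroma, had 1.98 and 4.50 CPM, against 1.93 and 4.35 CPM (log2 fold change 0.04, adjusted p = 0.985), with the replicates of each group further apart than the groups. In family 3, which oxidizes drugs and steroids, 1 of 7 genes was tested. Cyp3a13, the member known in the mouse intestine, had 4.50 and 6.82 CPM, against 12.8 and 11.5 CPM (-1.10 with an SE of 0.30 and an adjusted p of 0.169; DESeq2 adjusted p = 0.0232). Cyp3a11, the main liver form, had 0 and 1 counts in IEC-/-, against 0 and 0 in IEC+/+.

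Cyp2f2, known for lung airway cells where it activates naphthalene, was set by a single library. It had 0.18 CPM in IEC-/- replicate 1 and 60.4 CPM in IEC-/- replicate 2, against 3.51 and 2.46 CPM in the IEC+/+ libraries. The IEC-/- values thus lay on both sides of the IEC+/+ values (log2 fold change 3.34 with an SE of 1.87 and an adjusted p of 0.448). Without IEC-/- replicate 2 the fold change was -4.02 (adjusted p = 0.0479) and without IEC-/- replicate 1 it was 4.33 (adjusted p = 0.00231). Other P450 genes, named like Cyp2f2 after their values were seen, had most of their counts in that library. Cyp4a10, a fatty acid hydroxylase gene of the PPAR-alpha response, had 0 and 72 counts in IEC-/-, against 0 and 0 in IEC+/+. With all libraries it did not pass the filter, and its call as higher without IEC-/- replicate 1 rests on IEC-/- replicate 2 alone. Cyp2a5 had 2 and 42 counts, against 0 and 3. Cyp4b1 had 2 and 32 counts, against 9 and 5, and Cyp2b19, a P450 of mouse keratinocytes, had 0 and 7 counts, against 0 and 0. The squamous markers moved in the same library: Krt5, a basal keratin, had 0 and 795 CPM, against 0.193 and 10.4 CPM, and Trp63, a transcription factor of stratified epithelium, 0.0719 and 34 CPM, against 0 and 0.870 CPM. Their part in the P450 values was not tested. Summed over all 94 genes, P450 RNA was 432 and 464 CPM in IEC-/- tumours, against 578 and 481 CPM in IEC+/+ tumours, and without Cyp2f2 it was 432 and 404 CPM, against 574 and 478 CPM.

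**Figure D4:**
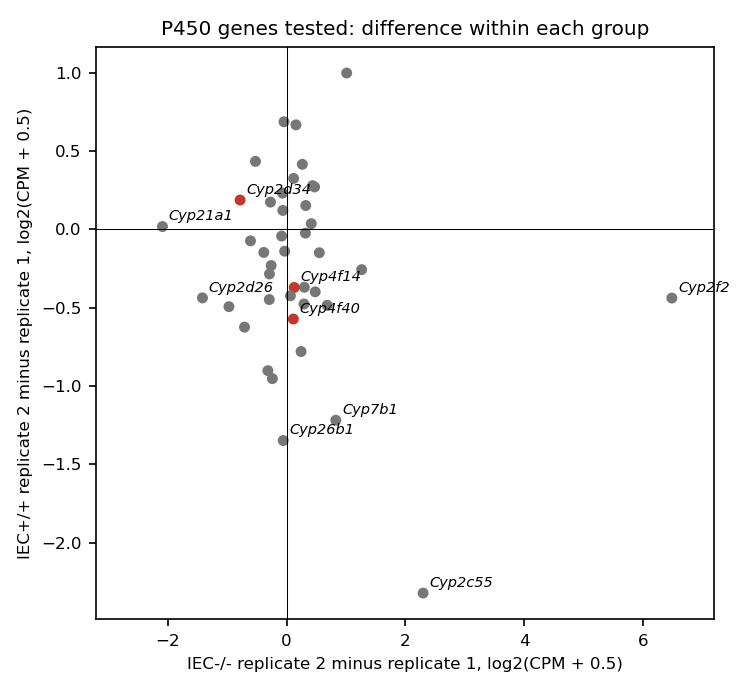
Difference between replicates 2 and 1 within the IEC-/- group (x axis) and within the IEC+/+ group (y axis), in log2(CPM + 0.5), for the 42 P450 genes tested; red points are the 3 genes called between groups. Cyp2f2 lies 6.49 to the right, and Cyp2c55 differs by 2.30 and -2.32 in opposite directions. The called genes lie within 1 of 0 on both axes, as do most of the 42: 6 differed by more than 1 in IEC-/- and 3 in IEC+/+. The test between groups favours genes with close replicates.

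Among enzymes of sterols and bile acids, Cyp27a1 had the highest level per exon length of the P450 genes measured. This mitochondrial enzyme hydroxylates the cholesterol side chain and is abundant in macrophages. It had 125 and 104 CPM in the IEC-/- libraries, against 71.4 and 80.6 CPM in the IEC+/+ libraries. Both IEC-/- values were higher, by 1.5-fold on average (log2 fold change 0.59 with an SE of 0.15 and an adjusted p of 0.147; DESeq2 adjusted p = 0.0266). Macrophage markers differed in the same direction, with 6 genes summing to 1216 and 834 CPM in IEC-/- tumours, against 707 and 593 CPM in IEC+/+ tumours. Of these 6 genes 0 passed, and 2 were higher at an unadjusted p under 0.05 (7.5% over all genes). Their part in the Cyp27a1 values was not tested. Cyp39a1 and Cyp7b1, which hydroxylate oxysterols, had 26.6 and 17.3 CPM and 1.91 and 3.77 CPM in IEC-/- tumours, against 20.4 and 19.4 CPM and 5.60 and 2.12 CPM in IEC+/+ tumours (adjusted p = 0.837 and 0.784). Cyp8b1 and Cyp46a1 were below 1 CPM in every library, and Cyp7a1, the rate-limiting enzyme of bile acid synthesis in liver, had 0 counts in every library.

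Of the steroid-making enzymes, Cyp21a1 was lower in both IEC-/- libraries without passing the quasi-likelihood test. With all libraries the exact test of edgeR called it lower, and DESeq2 and limma-voom did not. The steroid hydroxylase gene Cyp21a1 (chr17:34801348-34804561) had 7.30 and 1.33 CPM in IEC-/- tumours, against 22.4 and 22.7 CPM in IEC+/+ tumours. The IEC+/+ libraries were close to each other while the IEC-/- libraries differed several-fold (log2 fold change -2.38 with an SE of 0.73 and an adjusted p of 0.209). The log2 fold change was -4.08 without IEC-/- replicate 1 and -1.63 without IEC-/- replicate 2. It was -2.39 without IEC+/+ replicate 1 and -2.37 without IEC+/+ replicate 2. Each of these fits leaves 1 library in a group. Its transcripts shared 5.08% of windows, mostly with the pseudogene Cyp21a2-ps, and 102 exon bases overlapped Tnxa on the opposite strand. The use of strand in counting is not stated in the sources used here. Cyp11a1, which makes pregnenolone from cholesterol, had 12.3 and 11.9 CPM, against 7.22 and 11.9 CPM (adjusted p = 0.65). Further steroid genes were silent: Cyp17a1, Cyp19a1 and Cyp11b1 had 0 counts in every library, and Cyp11b2 had 0 and 0, against 0 and 2. Star, which delivers cholesterol to Cyp11a1, had 8.09 and 8.69 CPM, against 8.84 and 7.04 CPM, while Hsd3b1 and Mc2r, other markers of steroid-making tissue, were at 0.

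For vitamin D, Cyp27b1, which makes the active hormone, had 0.54 and 0.801 CPM in IEC-/- tumours, against 0.154 and 0.227 CPM in IEC+/+ tumours (log2 fold change 1.78 with an SE of 0.68 and an adjusted p of 0.284), from 4 to 21 counts per library. Cyp24a1, which degrades the hormone, had 3 and 3 counts, against 5 and 6, and was too low to test. Cyp26b1 and Cyp26a1 degrade retinoic acid. Cyp26b1 had 8.38 and 8.04 CPM, against 15.1 and 5.64 CPM, with the IEC+/+ libraries on both sides (adjusted p = 0.794), and Cyp26a1 had 0.432 and 0.762 CPM, against 0.193 and 0.341 CPM (adjusted p = 0.489). Cyp20a1, an enzyme without a settled substrate, had 22.9 and 28.2 CPM, against 27.8 and 19.8 CPM (adjusted p = 0.875).

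**Figure D5:**
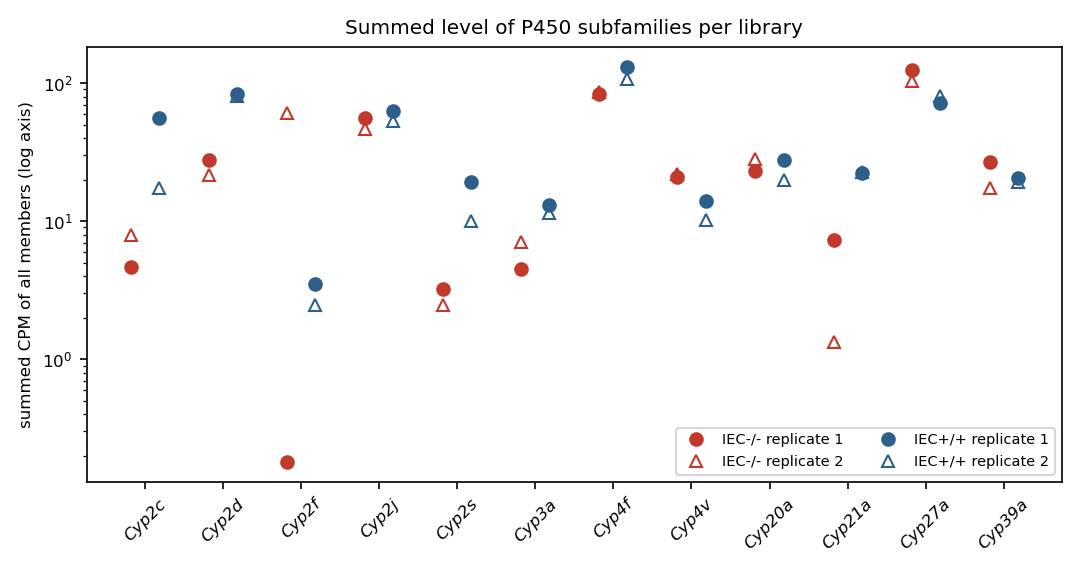
Summed CPM of all members of 12 P450 subfamilies in each library (y axis, log scale); red points are IEC-/- libraries and blue points IEC+/+ libraries, circles are replicate 1 and triangles replicate 2. The Cyp2c, Cyp2d, Cyp2s, Cyp3a, Cyp4f and Cyp21a sums are lower in both IEC-/- libraries, and Cyp4v and Cyp27a are higher in both. Cyp2f spans from 0.18 to 60.4 CPM inside the IEC-/- group. The 12 were picked without a set rule, so the share of them that differ is not a result. Among those not drawn, the groups overlap in Cyp11a, Cyp2w and Cyp26b, and Cyp2b is higher in both IEC-/- libraries. Of all single genes tested, 24.1% were lower and 24% higher in both.

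Levels of different genes were compared as CPM per kilobase of exon (GENCODE M21). On that scale Cyp27a1 led with 52.6 in IEC-/- and 35 in IEC+/+, as group means. It made up 35.4% and 25.9% of the summed P450 level in the IEC-/- libraries, against 14.8% and 20.3% in the IEC+/+ libraries. The order below it differed between the groups. In IEC-/- the next group means were 15 for Cyp2f2, nearly all of it from replicate 2, 13.9 for Cyp2j6, 11.2 for Cyp20a1 and 11.1 for Cyp4f16. Cyp2d34 and Cyp4f40 were at 3.43 and 2.72 there. In IEC+/+ the next were Cyp2d34 at 18.4, Cyp2j6 at 15.9, Cyp4f40 at 14.7 and Cyp4f16 at 12.4, an order that changed between the 2 libraries. Cyp2f2 made up 0.0547% and 16.2% of the summed level in the IEC-/- libraries, against 0.782% and 0.665% in the IEC+/+ libraries. The share of Cyp2d34 was 2.70% and 1.34% in the IEC-/- libraries, against 7.77% and 10.7% in the IEC+/+ libraries.

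Genes that serve or regulate P450 enzymes were taken as a list of 34, all of them tested, of which 1 fell and 0 rose (0.763% and 0.12% over all genes). At an unadjusted p under 0.05, 10 were lower and 1 higher (9.12% and 7.5% over all genes). Their median log2 fold change was -0.26, beside 0.01 over all genes. Of the 6 electron donors 0 passed (0 at an unadjusted p under 0.05), and Por had 89.6 and 121 CPM in IEC-/- tumours, against 112 and 100 CPM in IEC+/+ tumours (adjusted p = 0.992). Of 9 genes of haem synthesis and breakdown 0 passed, with Alas1, the first enzyme of haem synthesis, at 61.3 and 75.5 CPM, against 104 and 86.4 CPM (log2 fold change -0.47, adjusted p = 0.249), and Hmox1, which degrades haem, at 36.9 and 40.7 CPM, against 123 and 69.1 CPM (-1.31, adjusted p = 0.111).

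Among 9 nuclear receptors and hepatocyte nuclear factors, 6 were lower at an unadjusted p under 0.05 (9.12% over all genes) and 1 fell (0.763% over all genes). That gene was Nr1i2, which encodes PXR, the receptor that switches on Cyp3a and Cyp2c genes in response to foreign compounds. It had 15.9 and 12.6 CPM in IEC-/- tumours, against 39.9 and 36.1 CPM in IEC+/+ tumours (log2 fold change -1.42 with an SE of 0.19 and an adjusted p of 0.0479). Hnf4a, a regulator of P450 genes in liver and gut, had 344 and 232 CPM, against 582 and 540 CPM (-0.96, adjusted p = 0.113). Nr1h4, the bile acid receptor, Vdr, the vitamin D receptor, and Nr5a2 were at -1.73, -1.20 and -2.43 on the same log2 scale, with adjusted p = 0.0661, 0.0810 and 0.156. In the AhR axis 0 of 5 genes passed: Ahr had 74.8 and 78.7 CPM, against 65.9 and 55.4 CPM (0.34, adjusted p = 0.295), and Nqo1, a target gene, 11.5 and 13.6 CPM, against 20.3 and 22.1 CPM (-0.76, adjusted p = 0.164). Ephx2, an epoxide hydrolase that acts on the products of P450 epoxygenases, had 1.83 and 1.87 CPM, against 6.10 and 5.07 CPM (-1.59, adjusted p = 0.11).

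Markers of absorptive cells were lower in the same libraries as the P450 genes that fell. Of 12 colonocyte markers 3 fell and 11 were lower at an unadjusted p under 0.05 (0.763% and 9.12% over all genes). The 12 summed to 913 and 905 CPM in IEC-/- tumours, against 2024 and 1653 CPM in IEC+/+ tumours. General epithelial markers, 8 genes, summed to 6464 and 6112 CPM, against 10541 and 9198 CPM, with 0 passing and 6 lower at an unadjusted p under 0.05. Of 7 goblet cell markers 2 fell, with sums of 664 and 1380 CPM, against 5584 and 3471 CPM. Of 6 smooth muscle and 6 fibroblast markers 0 passed; they summed to 240 and 251 CPM and to 2253 and 1945 CPM in IEC-/- tumours, against 445 and 185 CPM and 3432 and 2109 CPM in IEC+/+ tumours. The part of these cell types in the P450 values was not tested. Of the hepatocyte markers 7 were in the tables: Alb rose (88.8 and 55.7 CPM in IEC-/- tumours, against 10 and 9.27 CPM in IEC+/+ tumours) and Apob fell. Ttr had 15.3 and 40.8 CPM, against 15.5 and 25.8 CPM, with overlapping groups (adjusted p = 0.726), while Apoa1, Serpina1a, Fgb and Ahsg were at or below 1.27 CPM in every library. In the adipocyte list Adipoq, Plin1 and Lep were at 0, and 0 of 2 tested genes passed.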

How the data were processed

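Colon tumour RNA came as 2 IEC-/- and 2 IEC+/+ libraries, grouped by sample title. The authors deposited unnormalized counts, as whole numbers for each gene symbol. Per the submitters' processing notes, TopHat, limma, edgeR and the mm10 build (GRCm38) were used; no versions, counting tool, annotation or strand setting are given there. From the deposited counts, the whole table was fitted with edgeR 4.0.16 in R 4.3.3 (TMM factors 0.955 to 1.05, default expression filter, quasi-likelihood test of group, Benjamini-Hochberg adjustment over 16637 genes), and genes were called at an adjusted p under 0.05. The common biological coefficient of variation was 0.248. Alternatives used DESeq2 1.42.0, limma 3.58.1 and edgeR's exact test; DESeq2 gave no adjusted p for 38 of 75 P450 genes with counts. Folds are IEC-/- over IEC+/+, standard errors come from the F statistic, and CPM uses scaled library sizes. Counts of replicates differed beyond counting noise (chi-square over its degrees of freedom 66.6 for IEC-/- and 33.8 for IEC+/+), so no library was counted as a repeat of another; this does not show that they come from separate animals. Coding sequences were compared with blastn 2.17.0, and 93 of 94 members matched GENCODE M21 by symbol. Transcripts were compared by shared 100-base windows. The members and lists were chosen with earlier results of these data known. P450 genes named are those called, those with an unadjusted p under 0.05 and the highest in each family; further members are given as context of their subfamily or role, chosen after their values were seen, as was the list of squamous genes. The labels give no batch. No protein table was used; coding sequences stand in for it.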

Additional observations from a re-analysis of the deposited data

How the results depend on the processing

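With 2 libraries a group, calls depend on tool and library. The 3 P450 genes that fell were again called with DESeq2's size factors, with no filter, with a stricter filter (1 CPM in 2 libraries), by DESeq2, under the exact test and with a replicate block, and no filter added Cyp2s1. P450 genes called lower numbered 9 by DESeq2, 9 under the exact test and 1 with limma-voom, and 0 to 8 with a library left out; those called higher numbered 2 by DESeq2 and 0 to 2 with a library left out. Over all genes, 127 fell and 20 rose; the counts lower were 307 with no filter, 798 by DESeq2, 566 under the exact test, 68 with limma-voom and 0 to 398 with a library left out, and the counts higher in the same order were 69, 467, 316, 10 and 0 to 344. Where a library was left out, the lone library of its group was assumed to vary like the others. The median log2 fold change of the P450 genes ran from -0.39 to 0.015 with a library left out. The replicate numbers do not pair the libraries by any label, and the deviations of same-numbered libraries had a correlation of 0.16 over all genes; with the replicate block 173 genes fell and 38 rose, and the P450 calls were 3 lower and 0 higher. Of 333 values of 31 named genes under alternatives, 0 reversed a called gene, and 9 turned the sign of a gene not called. These 31 are the tested genes named by rule and Cyp2f2. Genes given as context are outside that count, and some of them turned sign too. Among these were Cyp2d26 (log2 fold change 0.12 without IEC-/- replicate 2), Cyp2w1 (0.019 without IEC-/- replicate 1) and Cyp4f15 (-0.17 without IEC+/+ replicate 1). Sums of Cyp2c, Cyp2d, Cyp4f and all P450 genes kept their direction in the alternatives run, with the Cyp2c log2 ratio between -3.15 and -1.46 with a library left out. Of the 33 members with counts but no test, 30 had at most 25 counts in all, and Cyp4a10, Cyp4b1 and Cyp2a5 had most of theirs in IEC-/- replicate 2.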

Other observations

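The tables hold 11 further symbols that begin with Cyp and a digit but lack the family number, subfamily letter and gene number in that form. Cyp51, the lanosterol demethylase of cholesterol synthesis, had 162 and 186 CPM in the IEC-/- libraries, against 221 and 185 CPM in the IEC+/+ libraries (log2 fold change -0.22, adjusted p = 0.525). The pseudogene Cyp2d37-ps had 7 and 27 counts in IEC-/-, against 42 and 22 in IEC+/+, and Cyp4f41-ps had 39 and 21 counts, against 49 and 38. Cyp3a41a and Cyp3a41b had 0 and 2 counts and 0 and 1 counts in IEC-/-, with 0 in IEC+/+. Cyp4a30b had 0 and 0, against 2 and 0, and 5 symbols had no count. P450-related enzymes with other names were also measured: Tbxas1, thromboxane synthase, had 5.11 and 3.74 CPM, against 6.33 and 2.80 CPM (adjusted p = 0.98), and Ptgis, prostacyclin synthase, 0.971 and 1.3 CPM, against 1.47 and 1.63 CPM (adjusted p = 0.696).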
